A study of Mus musculus with 23 samples.

Results

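This account follows 10 genes used as markers of tumour-associated macrophages through sorted cells of a mouse breast tumour. They are Adgre1, Mrc1, Clec10a, Mertk, Apoe, C1qa, C1qb, C1qc, Trem2 and Arg1. They were taken by symbol from a table of read counts for 48397 gene symbols, of which 16422 had no count in any library. No measured value enters this rule, although earlier results of these data were known when the markers were chosen. All 10 were found, and all 10 passed the filter on low counts in every comparison.

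The tumours were Met1-iRFP breast tumours in mice of the FVB strain. The Met-1 line was established from a mammary carcinoma of MMTV-PyMT mice, in which a viral oncogene drives breast cancer, and its cells here carry iRFP, which fluoresces in the near infrared and lets them be sorted. Every group thus shares the tumour line and the strain. The 23 libraries form 4 groups: iRFP-positive cells, called cancer cells by the labels, from sedentary (n = 8) or exercised mice (n = 7), and iRFP-negative cells of the tumour microenvironment (TME), from sedentary (n = 4) or exercised mice (n = 4). The labels give neither the age of the mice nor the kind or length of exercise, and they do not state whether libraries come from different animals. The p-values below therefore reflect only the spread among libraries, which may be technical. The TME sort is defined by the lack of iRFP, not by a macrophage gate, so it can hold every cell type of the tumour and tumour cells with too little iRFP.

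Macrophages enter tumours as monocytes and mature there under colony-stimulating factor 1, or derive from macrophages that already lived in the tissue. In tumours they clear dead cells and debris, take up and export lipid, make complement proteins and break down arginine, and the 10 genes cover these tasks. Adgre1 encodes the surface receptor F4/80, the classical mouse macrophage antigen. Mrc1 (the mannose receptor CD206) and Clec10a (the galactose lectin CD301) bind sugars. Mertk is a receptor tyrosine kinase that binds bridging proteins on dying cells, and Trem2 is a lipid-sensing receptor that signals through the adaptor Tyrobp. Apoe carries cholesterol out of cells, C1qa, C1qb and C1qc encode the 3 chains of complement C1q, and Arg1 encodes arginase 1, which turns arginine into ornithine and urea.

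The genes lie on 6 chromosomes of the GRCm38 (mm10) build in GENCODE M21, and all are protein-coding. The 3 C1q genes are neighbours on the minus strand of chromosome 4, C1qb at 136880129 to 136886187, C1qc at 136889804 to 136893065 and C1qa at 136895917 to 136898803. Mrc1 (14229392 to 14332057) and Mertk (128698956 to 128802894) lie on chromosome 2, and Trem2 (48346401 to 48354147) and Adgre1 (57358691 to 57483527) on chromosome 17. Clec10a lies on chromosome 11 (70156197 to 70170834), Apoe on chromosome 7 (19696109 to 19699188) and Arg1 on chromosome 10 (24915221 to 24927484). The strand setting of the counting is not given in the sources used here, so reads of Mertk and of the antisense gene Gm14011 within it cannot be told apart. Gm14011 itself was listed with 0 to 12 counts per library. Clec10a resembles its neighbour Mgl2, a second galactose lectin, closely enough that reads may be split or lost between them, and its level is uncertain to that extent.

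Promoter sequence is shown for 4 of the genes because they span the range of behaviour described below: Mrc1 varied most between TME libraries, C1qb stands for the C1q cluster, and Trem2 and Mertk kept the highest relative levels in the cancer sort. The RefSeq table (GRCm38.p6) held starts for 6 of the 10 genes, with 8 windows in all. The sequences run 5′ to 3′ on the gene's strand over the 250 bases before the RefSeq start, cut back in Mrc1 to the 228 bases that also precede the GENCODE start. They cover chr2:14229164-14229391 on the plus strand (Mrc1), chr4:136886201-136886450 on the minus strand (C1qb), chr17:48346151-48346400 on the plus strand (Trem2) and chr2:128698665-128698914 on the plus strand (Mertk). Capitals mark matches to GAGGAA or its reverse complement TTCCTC, the core bound by the macrophage factor PU.1 and by other ETS proteins.
Mrc1: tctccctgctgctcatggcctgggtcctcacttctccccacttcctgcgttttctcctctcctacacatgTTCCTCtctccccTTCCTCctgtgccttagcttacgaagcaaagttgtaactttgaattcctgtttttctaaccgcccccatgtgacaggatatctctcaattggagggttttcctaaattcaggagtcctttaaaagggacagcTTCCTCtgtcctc
C1qb: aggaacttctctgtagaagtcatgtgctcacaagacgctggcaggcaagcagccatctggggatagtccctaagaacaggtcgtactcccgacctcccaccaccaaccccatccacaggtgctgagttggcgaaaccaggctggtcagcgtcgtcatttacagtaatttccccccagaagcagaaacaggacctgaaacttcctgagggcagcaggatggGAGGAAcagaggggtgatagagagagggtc
Trem2: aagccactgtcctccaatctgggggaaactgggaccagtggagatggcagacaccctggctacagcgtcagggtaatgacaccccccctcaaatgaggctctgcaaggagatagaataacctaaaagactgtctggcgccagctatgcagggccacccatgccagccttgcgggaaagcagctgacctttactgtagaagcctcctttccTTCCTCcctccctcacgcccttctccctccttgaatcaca
Mertk: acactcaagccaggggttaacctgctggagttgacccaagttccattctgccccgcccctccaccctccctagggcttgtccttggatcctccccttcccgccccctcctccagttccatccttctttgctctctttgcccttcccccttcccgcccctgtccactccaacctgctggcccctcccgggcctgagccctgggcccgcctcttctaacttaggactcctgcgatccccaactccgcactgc
The Mrc1 window held 3 matches, the C1qb and Trem2 windows 1 each and the Mertk window 0. Of all 32851 windows in the table, 23.3% held at least 1 match on either strand, so a single match is a common feature of promoters. The AP-1 motif TGACTCA (4.46% of all windows) and the E-box CACGTG (6.02%), searched on both strands, had 0 matches in these windows. A match describes letters only.

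Levels are in CPM, the count of a gene relative to a fixed total of counts per library, scaled between libraries by edgeR's trimmed mean of M values (TMM). Total counts per library were 15924340 to 25563245 and 20073700 to 25526059 in sedentary and exercised cancer cells, and 16307545 to 35958441 and 22682216 to 37388479 in sedentary and exercised TME cells. The 10 genes together took 0.00492 to 0.0144% of the counts in cancer libraries and 0.0576 to 0.351% in TME libraries. Mitochondrial transcripts took 42.2% of counts in sedentary TME library 4 and 14.5% in sedentary TME library 6, compared with 2.61 to 8.63% in the remaining 6 TME libraries, and 1.86 to 3.90% in the cancer sort. The exercised TME libraries 8 and 9 stand apart in the opposite sense, with 0.344 and 0.351% of their counts in the 10 genes against 0.0753 and 0.0787% in exercised TME libraries 7 and 10.

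**Figure D1:**
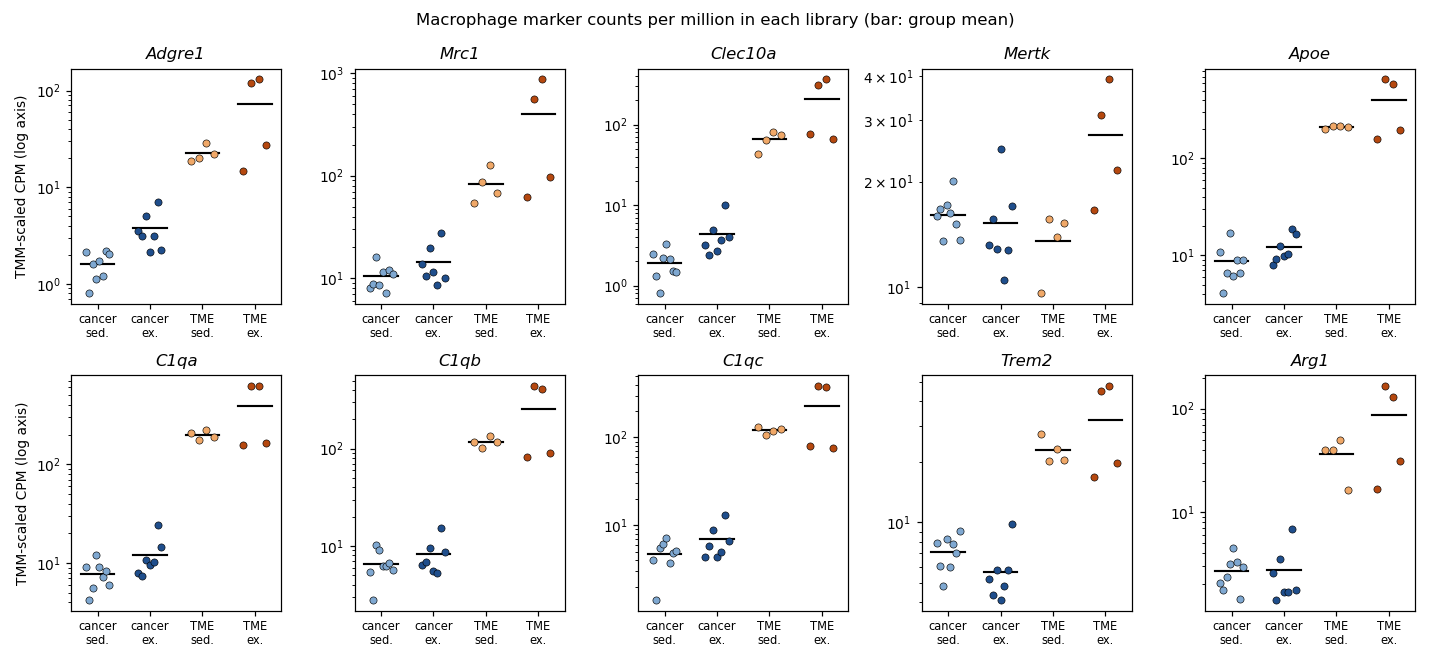
TMM-scaled CPM of each of the 10 genes on a log axis, 1 point per library, in sedentary (sed.) and exercised (ex.) cancer and TME cells, with a bar at the group mean. For 9 of the 10 genes every TME library lies above every cancer library, and for Mertk the groups overlap. In the exercised TME group 2 libraries (8 and 9) lie above the other 2.

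The first comparison set cancer cells against TME cells, averaged over both treatments, and shows how far each macrophage gene belongs to the TME sort. Of the 10 genes, 9 were lower in cancer cells by edgeR's quasi-likelihood test (adjusted p below 0.05), and Mertk alone was not called. Of all 17503 genes tested, 52.6% were called in either direction, 25.3% were called lower and 27.3% were called higher, so a call in this contrast is common and the size of the change says more. The median difference of the 10 genes was -4.44 log2, against 0.01 over all genes tested. For the same 9 genes the lowest of 8 TME libraries exceeded the highest of 15 cancer libraries, as it did for 5.22% of all genes. Fewer macrophages in a sort and less RNA per macrophage cannot be told apart in bulk libraries.

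Apoe, the lipid carrier, was the steadiest of the genes in sedentary TME cells by TMM-scaled CPM. Its level there was 204, 216, 214 and 209 CPM in libraries 4, 6, 9 and 10, a highest value 1.06 times the lowest. This evenness rests on the scaling of library 4, which had 42.2% mitochondrial counts. Relative to total counts alone the levels were 138, 215, 228 and 215 CPM in the same order. In sedentary cancer cells it ranged from 4.08 over a median of 7.83 to 16.9 CPM, and in exercised cancer cells from 7.96 over 10.2 to 18.9. Exercised TME cells had 161, 656, 580 and 198 CPM in libraries 7, 8, 9 and 10. The group means were thus highest in exercised TME cells, and the ranges of neighbouring groups were apart only between the 2 sorts. Apoe was lower in cancer cells by -4.80 ± 0.26 log2 (± SE, edgeR adjusted p = 1.28e-11).

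The 3 C1q genes stood together. C1qa had 206, 175, 223 and 190 CPM in sedentary TME libraries 4, 6, 9 and 10, and 155, 618, 616 and 164 CPM in exercised TME libraries 7, 8, 9 and 10. In cancer cells its lowest, median and highest levels were 4.24, 7.76 and 12.0 CPM in sedentary and 7.35, 10.3 and 24.4 CPM in exercised libraries. Libraries of the 2 sorts did not overlap. C1qb was listed at 116, 101, 135 and 117 CPM in sedentary TME cells and at 81.1, 438, 413 and 90.8 CPM in exercised TME cells, in the same order. C1qc was listed at 133, 106, 118 and 126 CPM and at 80.1, 384, 372 and 76.1 CPM. For all 3 chains, exercised libraries 8 and 9 were above, and 7 and 10 below, every sedentary TME library. The differences between sorts were -4.83 ± 0.27 (C1qa), -4.55 ± 0.29 (C1qb) and -4.84 ± 0.30 log2 (C1qc), with edgeR adjusted p = 1.97e-11, 1.49e-10 and 1.27e-10.

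C1q is assembled from equal numbers of the 3 chains, and their CPM ratios can be followed in each sort. The C1qa to C1qb ratio was 1.70 ± 0.0705 (SD, n = 4) in sedentary TME cells and 1.66 ± 0.242 (n = 4) in exercised TME cells. In cancer cells it was 1.25 ± 0.350 (n = 8, sedentary) and 1.49 ± 0.340 (n = 7, exercised), with single libraries from 0.547 to 1.97. The C1qc to C1qb ratio was 1.04 ± 0.115 and 0.901 ± 0.0637 in the TME groups and 0.734 ± 0.215 and 0.835 ± 0.0926 in the cancer groups, in the same order. The C1qa to C1qb ratio thus had its larger SDs in the cancer sort, where each C1q gene rested on 37 to 594 counts per library. No test was made of the ratios.

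Clec10a, the galactose lectin, had the largest fall of the 10 genes. It had 43.1, 64.4, 81.0 and 74.4 CPM in sedentary TME libraries 4, 6, 9 and 10, and 77.4, 312, 366 and 65.4 CPM in exercised TME libraries 7, 8, 9 and 10. In cancer cells the lowest, median and highest levels were 0.808, 1.83 and 3.26 CPM (sedentary) and 2.39, 3.69 and 10.1 CPM (exercised), from 16 to 245 counts per library. The difference between sorts was -5.31 ± 0.32 log2 (edgeR adjusted p = 6.32e-11). Mrc1, the mannose receptor, was less depleted in sedentary cancer cells, with 7.20, 9.93 and 16.3 CPM as lowest, median and highest level and 8.69, 11.6 and 27.6 CPM in exercised cancer cells. It had 54.4, 87.0, 126 and 67.0 CPM in sedentary TME libraries and 61.8, 559, 866 and 96.3 CPM in exercised TME libraries. The highest Mrc1 level was 14.01 times the lowest within the exercised TME group, the widest spread of the 10 genes in any group. Mrc1 fell by 3.86 ± 0.36 log2 from the TME to the cancer sort (edgeR adjusted p = 2.31e-08).

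Adgre1, the F4/80 gene, was the scarcest of the 10 per length in both cancer groups. It had 18.9, 19.8, 28.6 and 22.1 CPM in sedentary TME libraries and 14.8, 120, 131 and 27.4 CPM in exercised TME libraries, in the library order used above. In cancer cells it had 0.802, 1.67 and 2.16 CPM (sedentary, lowest, median and highest) and 2.15, 3.13 and 7.02 CPM (exercised). The highest sedentary cancer library thus reached just above the lowest exercised one. Adgre1 differed between sorts by -4.03 ± 0.31 log2 (edgeR adjusted p = 1.45e-09). Arg1, arginase 1, had 39.8, 39.7, 50.2 and 16.5 CPM in sedentary TME libraries and 16.6, 165, 131 and 31.2 CPM in exercised TME libraries. Its levels in cancer cells were 1.42, 2.66 and 4.49 CPM (sedentary) and 1.41, 1.76 and 6.81 CPM (exercised), and it differed between sorts by -4.34 ± 0.37 log2 (edgeR adjusted p = 5.67e-09). Sedentary TME library 10 was the lowest for Arg1 and for none of the other 9 genes.

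Trem2 and Mertk, the receptors for lipid and for dying cells, kept much more of their level in the cancer sort. Trem2 had 27.4, 20.3, 23.2 and 20.4 CPM in sedentary TME libraries and 16.9, 45.2, 47.6 and 19.7 CPM in exercised TME libraries. In cancer cells it had 4.85, 7.45 and 9.04 CPM (sedentary, lowest, median and highest) and 4.11, 5.20 and 9.77 CPM (exercised). The sorts did not overlap, and the difference was -2.08 ± 0.16 log2 (edgeR adjusted p = 9.83e-11). Mertk had 9.62, 15.6, 13.9 and 15.2 CPM in sedentary TME libraries and 16.6, 31.0, 39.2 and 21.7 CPM in exercised TME libraries. In cancer cells it had 13.5, 16.1 and 20.1 CPM (sedentary) and 10.4, 13.2 and 24.8 CPM (exercised). Every neighbouring pair of groups overlapped for Mertk, and sedentary TME cells had the lowest mean. The difference between sorts was -0.29 ± 0.14 log2 with an edgeR adjusted p of 0.0818. This call changed with the processing. Its adjusted p ran from 0.0121 to 0.644 over 32 alternatives, and the difference was -0.09 ± 0.14 log2 (adjusted p = 0.644) without exercised TME libraries 8 and 9. It was called lower with DESeq2, limma voom, RLE size factors or a mean CPM minimum of 1, and also without exercised cancer library 5 (adjusted p = 0.0131), sedentary TME library 4 (0.0199), exercised TME library 7 (0.0121) or exercised TME library 10 (0.0311).

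Without sedentary TME libraries 4 and 6, 9 of the 10 genes were again called lower in the cancer sort (median -4.50 log2). Without exercised TME libraries 8 and 9, 9 were called lower as well, with a median of -3.65.

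Levels of different genes can be set side by side only per length. With CPM divided by the length of the longest coding transcript in kb, C1qa was highest in all 4 groups, at 191 ± 19.9 (SD, n = 4) in sedentary TME cells and 7.40 ± 2.37 (n = 8) in sedentary cancer cells. Apoe (150 ± 3.89), C1qb (108 ± 12.8) and C1qc (100 ± 9.46) followed in sedentary TME cells, and C1qb and C1qc there do not differ beyond their spread. Clec10a (28.2 ± 7.09), Arg1 (24.7 ± 9.65), Trem2 (20.97 ± 3.08) and Mrc1 (15.6 ± 5.83) formed a lower set, above Adgre1 (6.90 ± 1.35) and Mertk (3.16 ± 0.640). Neighbours within the lower set differed by less than the larger SD of each pair, although Trem2 differed from both of its neighbours by more than its own SD. In sedentary cancer cells the order behind C1qa was Trem2 (6.55 ± 1.28), Apoe (6.16 ± 2.81), C1qb (5.99 ± 2.08), C1qc (3.95 ± 1.46), Mertk (3.73 ± 0.488), Mrc1 (1.94 ± 0.547), Arg1 (1.82 ± 0.667), Clec10a (0.817 ± 0.331) and Adgre1 (0.494 ± 0.157). Only Mertk and Mrc1, and Arg1 and Clec10a, were neighbours farther apart in this order than the larger SD of the pair. Trem2 thus held place 2 there and place 7 in sedentary TME cells. Its place depends on the length used, since all exons of Trem2 in the annotation span 4946 bases against 1088 in the longest coding transcript, and over all exons its level was 4.61 CPM per kb in sedentary TME cells.

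The level in the cancer sort as a percent of the level in the TME sort gives the same contrast within each treatment. In sedentary mice the ratio of group means was 2.90% for Clec10a, 3.88% for C1qa, 3.94% for C1qc, 4.12% for Apoe and 5.56% for C1qb. It was 7.15% for Adgre1, 7.34% for Arg1 and 12.5% for Mrc1. Trem2 stood at 31.2% and Mertk at 118%, well above the rest. In exercised mice the values ran from 2.16% for Clec10a over a median of 3.22% to 17.6% for Trem2 and 56.3% for Mertk, each below its sedentary value, and this order rests on TME libraries 8 and 9 in the denominators. Without these libraries the exercised values were 6.20% for Clec10a, 6.80% for Apoe, 7.61% for C1qa, 8.85% for C1qc and 9.56% for C1qb. They were then 11.6% for Arg1, 17.8% for Adgre1, 18.5% for Mrc1, 31.1% for Trem2 and 79.7% for Mertk. The direction against sedentary mice thus turned for 8 of the 10 genes, and Trem2 (31.1 against 31.2%) was level with its sedentary value. The 15 macrophage core genes, general macrophage genes such as Csf1r and Cd68, had a median of 8.72% in sedentary mice, with Aif1 lowest at 3.90%, and of 4.71% in exercised mice, with Ms4a7 lowest at 3.15%. Without exercised TME libraries 8 and 9 their median in exercised mice was 17.3%, with Tyrobp lowest at 8.76%. Clec10a was below the lowest core gene in both treatments, with and without these libraries.

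The combination of treatment and library number had both sorts in 7 cases, 4 sedentary and 3 exercised. Over these pairs Mertk ran from 41.4 to 141%, with 141, 104, 109 and 89.4% in sedentary pairs 4, 6, 9 and 10 and 63.0, 41.4 and 78.6% in exercised pairs 7, 8 and 10. The 3 exercised pairs were all below the 4 sedentary ones, but the share of all genes with such an order was not computed. The highest pair has sedentary TME library 4, with 42.2% mitochondrial counts, as its denominator, and the lowest has exercised TME library 8. Trem2 ran from 12.8% (exercised pair 8) to 49.5% (exercised pair 10), and Mrc1 from 4.94% (exercised pair 8) to 30.0% (sedentary pair 4). Clec10a stayed between 1.87 and 6.09%. The labels do not say that equal numbers mark the same tumour.

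**Figure D2:**
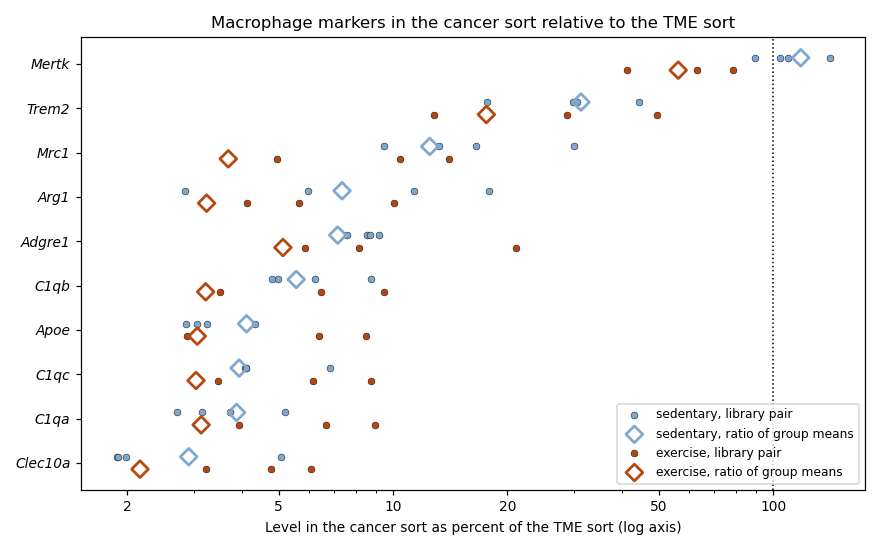
Level of each gene in the cancer sort as a percent of its level in the TME sort, on a log axis, as the ratio of group means (open diamonds) and in each of the 7 pairs of libraries with the same treatment and number (points), blue for sedentary and red for exercised. Mertk lies around the dotted line at 100 in sedentary mice (118% by group means), Trem2 at 31.2% and the other 8 genes between 2.90 and 12.5%.

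Each gene was also set against the mean log2 CPM of the 15 core genes in the same library, which removes the overall macrophage signal from the level. In sedentary TME cells Apoe was 2.19 ± 0.161 (SD, n = 4) and C1qa 2.10 ± 0.136 log2 above the core, C1qc 1.38 ± 0.256 and C1qb 1.34 ± 0.143. In sedentary cancer cells (n = 8) the same values were 0.656 ± 0.522, 0.537 ± 0.362, -0.203 ± 0.426 and 0.282 ± 0.342. Apoe and the C1q genes were thus lower in the cancer sort even against other macrophage genes. Clec10a fell as well, from 0.470 ± 0.353 in sedentary TME cells to -1.47 ± 0.595 in sedentary cancer cells. Adgre1 went from -1.06 ± 0.152 to -1.67 ± 0.339, and Arg1 from -0.447 ± 0.595 to -0.970 ± 0.467, the latter within its spread. Mertk went the other way, from -1.78 ± 0.350 in sedentary TME cells to 1.65 ± 0.395 in sedentary cancer cells. Trem2 went from -1.02 ± 0.253 to 0.467 ± 0.406. Mrc1 was near its TME value in both, at 0.785 ± 0.374 and 0.994 ± 0.382. These are differences of log2 levels between genes of unequal length, so only their change from group to group can be read.

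**Figure D3:**
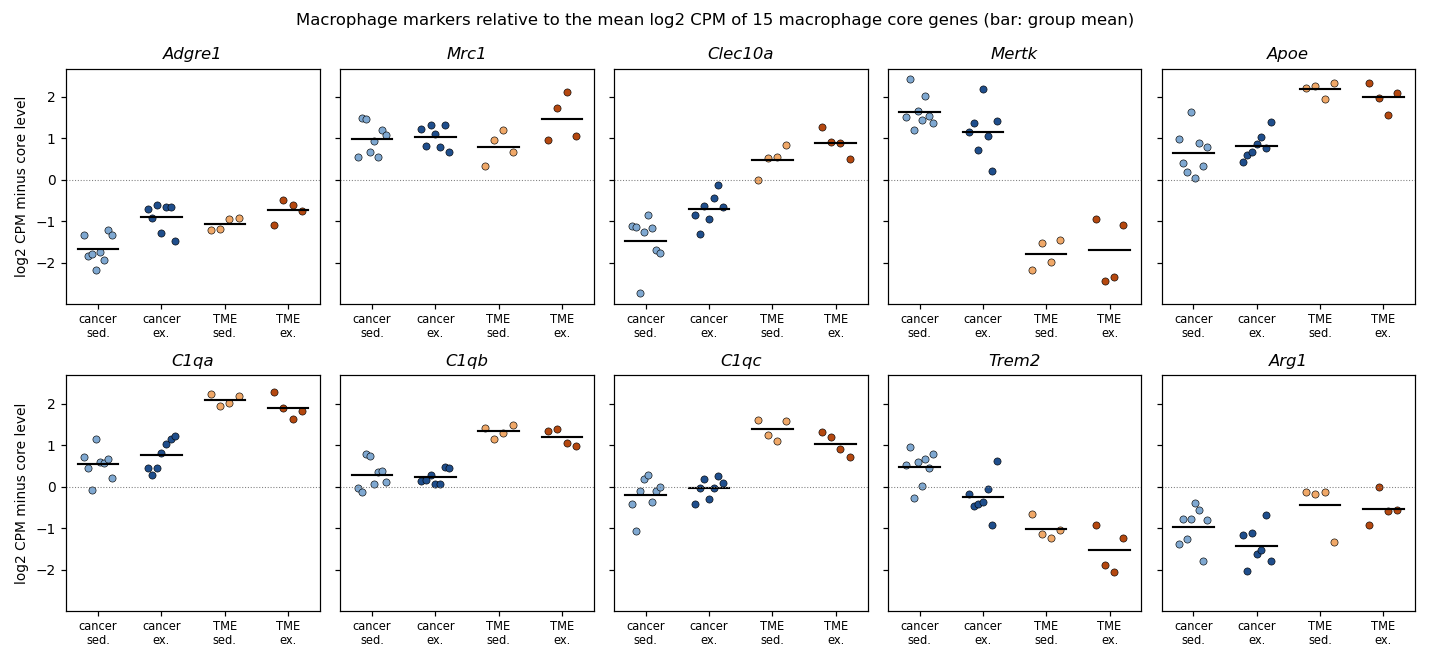
Log2 CPM of each gene minus the mean log2 CPM of 15 macrophage core genes in the same library, 1 point per library, with a bar at the group mean. Apoe and the C1q genes sit higher in the TME groups (1.34 to 2.19 above the core in sedentary TME cells) than in the cancer groups. By group means Clec10a and Arg1 also sit higher in the TME groups, while Mertk and Trem2 sit higher in the cancer groups.

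Genes that work with the 10 markers were described by lists. All 15 macrophage core genes were lower in cancer cells (median -4.03 log2), led by Aif1 (-4.52 ± 0.25), Tyrobp (-4.52 ± 0.28), Fcgr1 (-4.45 ± 0.30) and Ms4a7 (-4.73 ± 0.32). Of the 14 growth factors and transcription factors of macrophages, 10 were lower and 1 higher, and the lower ones included Irf5 (-2.04 ± 0.14), Tfec (-4.21 ± 0.40), Spi1, which encodes PU.1 (-4.33 ± 0.38), and Irf8 (-2.38 ± 0.24). Of the 10 genes of TREM2 signalling, 7 were lower, among them the adaptor Tyrobp, Card9 (-3.36 ± 0.24), the phosphatase gene Inpp5d (-3.94 ± 0.29) and the kinase gene Syk (-1.14 ± 0.12). The other 3 were higher, and they are the sheddases Adam10 and Adam17 and the phospholipase gene Plcg2 (0.19 to 0.64). Without sedentary TME libraries 4 and 6, 1 of these 3 was called higher. Of the 12 other lectin receptors, 11 were lower and 1 was higher (0 higher without sedentary TME libraries 4 and 6 or without exercised TME libraries 8 and 9), with Clec7a, the beta-glucan receptor, at -3.50 ± 0.26 and Mgl2 at -4.68 ± 0.31. Of 16 genes of the classical complement pathway and its receptors, 11 were lower and 0 higher (median -2.74), among them the receptor genes Itgax (-3.68 ± 0.27), C5ar1 (-4.37 ± 0.31) and Cd93 (-3.16 ± 0.25) and the regulator Cd55 (-4.79 ± 0.43).

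The uptake, lipid and arginine lists divided more evenly between the sorts, as did all genes tested, of which 25.3% were called lower and 27.3% higher. Of 15 tested genes of apoptotic cell uptake, 6 were lower and 6 higher (median 0.04). Elmo1 (-3.99 ± 0.27), Dock2 (-3.34 ± 0.31) and Gas6, a bridging ligand of Mertk (-2.57 ± 0.18), were lower, and Itgav, an integrin chain, was higher (0.97 ± 0.10). Of 15 tested genes of lipid handling, 6 were lower and 5 higher (median -0.18), with the cholesterol exporter gene Abcg1 at -4.06 ± 0.30, the scavenger receptor gene Cd36 at -2.11 ± 0.22, Pltp at -1.71 ± 0.18 and the lipoprotein receptor gene Vldlr at 0.67 ± 0.08. Of 11 genes of arginine metabolism, 3 were lower and 4 higher (median -0.16). The arginine transporter gene Slc7a1 (0.67 ± 0.08), Azin1 (0.59 ± 0.08) and Odc1, which makes putrescine from ornithine (0.77 ± 0.12), were higher in cancer cells, while the second arginase gene Arg2 was lower (-1.89 ± 0.33). The lists of macrophage activation leaned one way by count of genes. Of 12 inflammatory genes, 9 were lower and 1 higher (Cxcl9 at -3.35 ± 0.21, Cd86 at -3.99 ± 0.28, Il1b at -3.62 ± 0.24 and Tnf at -3.15 ± 0.28 among the lower). Of 13 genes of alternative activation, 11 were lower and 0 higher (Pdcd1lg2 at -3.41 ± 0.26, Cbr2 at -1.01 ± 0.10, Stab1 at -2.12 ± 0.21 and Ccl24 at -4.79 ± 0.59). The summed level of the inflammatory list went the other way in sedentary libraries, with 1109 to 1865 CPM in cancer and 544 to 1067 CPM in TME cells. In exercised libraries it was 933 to 1800 and 787 to 1313 CPM. The alternative list summed to 292 to 360 CPM in sedentary cancer and 408 to 553 CPM in sedentary TME cells. Of 5 further adhesion receptors of myeloid cells, 4 were lower, led by Adgrg5 (-3.87 ± 0.31), Adgre5 (-1.94 ± 0.22), Adgrg3 (-2.20 ± 0.30) and Adgrg1 (-0.35 ± 0.10). All differences in this and the preceding paragraph that carry a standard error passed the edgeR threshold.

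Markers of other cell types moved with the same contrast. All 12 pan-leukocyte genes, 10 of 10 neutrophil, 7 of 7 mast cell and 10 of 10 endothelial genes, and 7 of 10 fibroblast genes were lower in cancer cells. Summed levels in sedentary libraries were 128 to 220 CPM in cancer and 1337 to 1770 CPM in TME cells for the 15 core genes, 33.3 to 67.5 and 376 to 485 CPM for the pan-leukocyte genes, and 2.85 to 17.3 and 93.4 to 231 CPM for the mast cell genes. None of the 15 core genes was at 0 in every library of a group. The epithelial genes summed to 319 to 554 CPM in sedentary cancer and 311 to 530 CPM in sedentary TME cells. The part that each of these cell types has in the values of the 10 genes was not tested.

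The next comparison asked whether the macrophage genes differ between exercised and sedentary mice within the cancer sort. Of the 10 genes, 0 passed edgeR's adjusted threshold, as did 0% of 15096 genes tested. At an unadjusted p below 0.05 there were 3 of the 10 and 1901 of all genes, DESeq2 called 2 of the 10 and 1.07% of all genes, and limma voom called 1 of the 10 and 1.3% of all. The log2 difference was above 0 for 8 of the 10, with a median of 0.47 against -0.01 over all genes. The 2 genes with the largest values are Adgre1 and Clec10a. Adgre1 stood at 1.60 ± 0.507 CPM (SD, n = 8) in sedentary and 3.75 ± 1.74 CPM (n = 7) in exercised cancer cells, a log2 difference of 1.22 ± 0.27 with an edgeR adjusted p of 0.0860. It was called higher by DESeq2 (adjusted p = 0.00429), by limma voom (0.0347) and by edgeR without a count filter (0.0326), and its adjusted p ran from 0.00429 to 0.999 over 23 alternatives. Of the exercised libraries, 6 of 7 exceeded every sedentary one. Clec10a stood at 1.91 ± 0.773 and 4.43 ± 2.62 CPM, a log2 difference of 1.21 ± 0.30 (edgeR adjusted p = 0.128; DESeq2 0.0158; 0.0158 to 0.999 over 23 alternatives), with 4 of 7 exercised libraries above every sedentary one. For both genes all 7 exercised libraries exceeded the sedentary mean. The shares of all genes with such orders were not computed.

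The other genes differed less in the cancer sort. C1qa stood at 0.64 ± 0.25 log2 (unadjusted p = 0.0198, edgeR adjusted p = 0.319), C1qc at 0.53 ± 0.29, Apoe and Mrc1 both at 0.47 (± 0.26 and ± 0.24) and C1qb at 0.32 ± 0.25. Arg1 was at 0.04 ± 0.32, and Mertk and Trem2 were below 0, at -0.09 ± 0.15 and -0.34 ± 0.18. Their edgeR adjusted p-values ran from 0.319 to 0.973. None of the 10 genes had ranges that were apart, against 0.2% of all genes with every exercised cancer library above every sedentary one.

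Exercised cancer library 8 held the highest level of 8 of the 10 genes in its group, with a median of 2.59 times the sedentary mean and up to 5.28 times for Clec10a. Its pan-leukocyte level was 2.77 mean log2 CPM, against 1.16 to 2.04 in the other exercised and 0.373 to 1.62 in the sedentary cancer libraries, and its summed core level was 376 CPM against 180 to 272 CPM in the other exercised libraries. The pan-leukocyte genes had a median exercise difference of 0.63 log2 with 11 of 12 above 0, and the mast cell genes 0.84 with 5 of 5 tested above 0, none called. With the core level of each library as a covariate, Adgre1 stood at 0.67 ± 0.23 and Clec10a at 0.60 ± 0.28 log2, and 5 of the 10 genes were above 0 with a median of -0.01. This covariate is itself made of macrophage genes, so it takes out change that the markers share with them, whatever its cause.

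**Figure D4:**
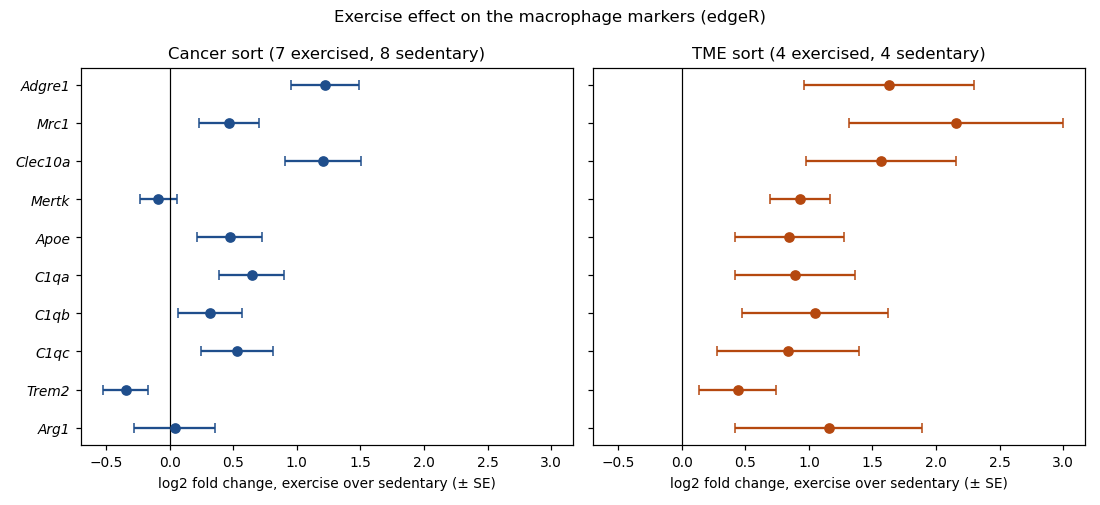
Log2 fold change of exercised over sedentary libraries for each gene, with its standard error, in the cancer sort (left, 7 against 8 libraries) and the TME sort (right, 4 against 4). In the cancer sort Adgre1 (1.22) and Clec10a (1.21) lie farthest from 0, and in the TME sort Mrc1 (2.16) does, with wider bars than in the cancer sort.

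In the TME sort the same question gave larger differences with larger errors. All 10 genes had a log2 difference above 0, with a median of 0.99 against 0.01 over all genes, and 0 of the 10 were called by edgeR, as were 0% of 16273 genes tested. At an unadjusted p below 0.05 there were 4 of the 10 and 1373 of all genes, DESeq2 called 0 of the 10 and 0.262% of all genes, and limma voom called 0 of the 10 and 0% of all genes. Mrc1 had the largest value, 83.6 ± 31.3 CPM (SD, n = 4) in sedentary and 396 ± 387 CPM (n = 4) in exercised TME cells, a log2 difference of 2.16 ± 0.84 (edgeR adjusted p = 0.586). Adgre1 followed at 1.63 ± 0.67, Clec10a at 1.56 ± 0.59, Arg1 at 1.16 ± 0.73 and C1qb at 1.05 ± 0.57. Mertk at 0.93 ± 0.24, C1qa at 0.89 ± 0.47, Apoe at 0.85 ± 0.43, C1qc at 0.84 ± 0.56 and Trem2 at 0.44 ± 0.31 came next. The edgeR adjusted p-values of the 10 ran from 0.586 to 0.666.

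These differences rest on exercised TME libraries 8 and 9. Relative to the sedentary TME mean, library 8 had 1.98 (Trem2) to 6.69 times (Mrc1) the level of the 10 genes, with a median of 3.46, and library 9 had 2.08 (Trem2) to 10.3 times (Mrc1), with a median of 3.31. Libraries 7 and 10 had 0.455 (Arg1) to 1.22 times (Mertk), median 0.739, and 0.630 (C1qc) to 1.59 times (Mertk), median 0.902. Without libraries 8 and 9, 2 of the 10 genes remained above 0, Mertk at 0.50 log2 and Clec10a at 0.14, and the median was -0.26. Adgre1 then stood at -0.08, Mrc1 at -0.07, Apoe at -0.22, C1qa at -0.30, C1qb at -0.43, C1qc at -0.61, Trem2 at -0.30 and Arg1 at -0.60 log2. The direction of 8 of the 10 genes in the TME sort thus turned with these 2 libraries. They were left out after their high levels of the same genes were seen, so lower values without them are partly built in. Without sedentary libraries 4 and 6, by contrast, all 10 stayed above 0, with a median of 0.94.

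**Figure D5:**
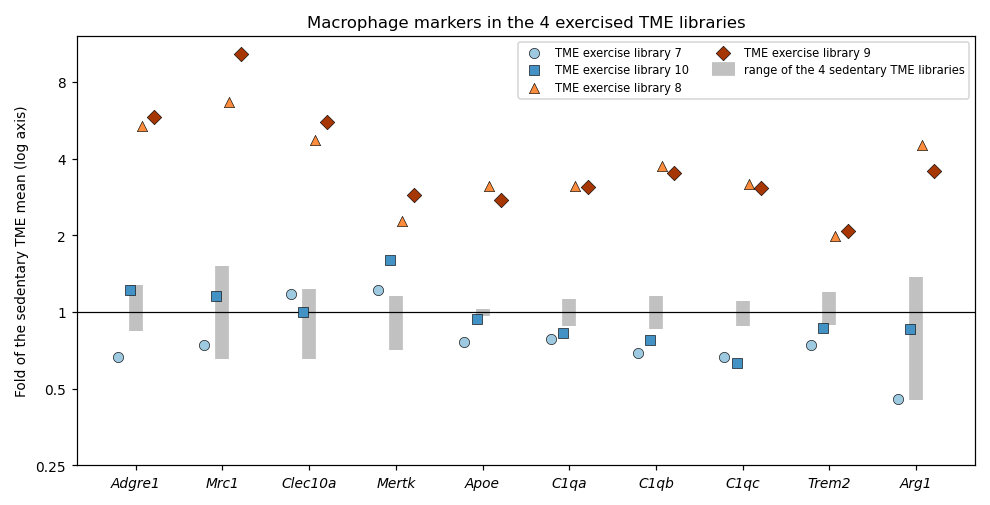
Level of each gene in the 4 exercised TME libraries as a fold of the sedentary TME mean, on a log axis, with grey bars for the range of the 4 sedentary TME libraries. Libraries 8 and 9 lie at 1.98 to 10.3 times the sedentary mean for all 10 genes, while libraries 7 and 10 lie at 0.455 to 1.59 times.

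General leukocyte and macrophage genes had the same pattern over these libraries. The pan-leukocyte level was 3.69, 6.33, 6.43 and 4.47 mean log2 CPM in exercised TME libraries 7, 8, 9 and 10 and 4.29 to 4.63 in sedentary TME libraries. The summed level of the 15 core genes was 976, 6515, 6936 and 1664 CPM in the exercised libraries, against 1337 to 1770 CPM in sedentary ones. Mast cell genes summed to 98.3 to 904 CPM in exercised and 93.4 to 231 CPM in sedentary TME libraries, and T cell genes to 12.0 to 75.9 and 13.7 to 33.8 CPM. The endothelial genes had 10 of 10 below 0 and a median of -1.08 log2, none called, and this value rests on sedentary TME library 4. They summed to 405 CPM in that library, to 80.4 to 99.3 CPM in the other sedentary and to 42.4 to 110 CPM in the exercised TME libraries, and without library 4 the median was -0.15 with 6 of 10 below 0. With the core level as a covariate, 4 of the 10 markers were above 0 and the median was -0.04. Adgre1 was then at 0.16 ± 0.14, Mrc1 at 0.28 ± 0.16, Clec10a at 0.45 ± 0.20 and Mertk at 0.57 ± 0.18 log2. The core genes are macrophage genes too and were highest in the same libraries 8 and 9. An adjustment for them thus takes out change that the markers share with them, whatever its cause. The part that the number of leukocytes in these libraries has in the result was not tested.

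Mertk was the one gene of the 10 whose exercised TME libraries (16.6, 31.0, 39.2 and 21.7 CPM) all exceeded every sedentary TME library (9.62, 15.6, 13.9 and 15.2 CPM). The same held for 2.09% of all genes. Its unadjusted p of 0.00225 was the smallest of the 10 in this comparison, with an edgeR adjusted p of 0.586 that ran from 0.0775 to 0.9999 over 18 alternatives. With Mertk the lowest sedentary value was library 4, the one with 42.2% mitochondrial counts.

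Partner genes gave no call by edgeR in either exercise comparison. In the TME sort 14 of 15 core genes were above 0 (median 1.13 log2), with Siglec1, the sialoadhesin gene, at 2.19 ± 0.75, and 9 of 10 genes of TREM2 signalling (median 0.84), with Syk at 0.81 ± 0.24 and Vav1 at 1.61 ± 0.54. Of the lectin receptors 10 of 12 were above 0 (median 1.32, Clec12a at 1.72 ± 0.51 and Clec4e at 0.87 ± 0.32), of the inflammatory genes 11 of 12 (0.62, Tnf at 1.34 ± 0.42 and Cd86 at 1.08 ± 0.37) and of the alternative activation genes 10 of 12 tested (0.77, Lyve1 at 2.25 ± 0.999 and F13a1 at 0.73 ± 0.34). Complement genes stood above 0 in 12 of 16 (0.41), with C4b at 0.68 ± 0.15. Lipid handling had 14 of 15 above 0 (0.13), with Cd36 at 0.94 ± 0.38 and Pltp at 1.06 ± 0.42. The uptake list had 9 of 15 above 0 (0.05, Dock2 at 1.56 ± 0.61 and Stab1 at 1.21 ± 0.54), and the arginine list 7 of 11 (0.08), with Arg2 at 1.33 ± 0.46 and Srm, spermidine synthase, at -0.42 ± 0.20. Of the growth factors and transcription factors 11 of 14 were above 0 (0.36), with Il4ra at 0.98 ± 0.34 and Irf5 at 0.67 ± 0.31, and of the adhesion receptors 3 of 4 tested (0.54), with Adgre5 at 1.16 ± 0.47 and Adgrg5 at 0.78 ± 0.57.

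The fit behind these list values includes exercised TME libraries 8 and 9, and most lists moved towards or past 0 without them. The core list then had 4 of 15 genes above 0 (median -0.20 log2), TREM2 signalling 4 of 10 (-0.06), the lectin receptors 6 of 12 (-0.03) and the complement list 8 of 16 (0.10). The growth factors and transcription factors had 5 of 14 above 0 (-0.06), the uptake list 6 of 15 (-0.08) and the adhesion receptors 2 of 4 tested (0.02). The inflammatory list stayed above 0 (8 of 12, median 0.23) and the alternative list did not (5 of 13, -0.09). Lipid handling (13 of 15, 0.22) and arginine metabolism (8 of 11, 0.22) also stayed above 0. No gene of these lists was called without libraries 8 and 9, but 0% of all genes were called with them, so this decides nothing. Both libraries were left out after their high levels of the 10 markers were seen, so lower values of macrophage genes without them are partly built in.

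In the cancer sort the lists lay closer to 0. The core list had 13 of 15 above 0 (median 0.32 log2), with Itgam at 0.71 ± 0.25 and Ms4a7 at 0.76 ± 0.28, and the lectin list 9 of 10 tested (0.40), with Mgl2 at 1.02 ± 0.37 and Clec4a3 at 0.67 ± 0.32. All 9 tested genes of TREM2 signalling were above 0 (0.16, Pik3cg at 1.19 ± 0.50 and Vav1 at 0.78 ± 0.42). The inflammatory list had 6 of 9 tested below 0 (-0.19), with Il6 at -1.27 ± 0.42 and Ptgs2 at -0.26 ± 0.15, whereas the alternative list had 6 of 7 tested above 0 (0.09), with Stab1 at 0.29 ± 0.12 and F13a1 at 0.26 ± 0.11. Lipid handling (9 of 15 above 0, median 0.05) held Abcg1 at 1.03 ± 0.34 and Cd9 at -0.28 ± 0.10, and complement (9 of 13 tested, 0.14) held C1qbp at -0.30 ± 0.09 and C3ar1 at 0.76 ± 0.33. Uptake genes were above 0 in 7 of 14 tested (median 0.00), with Elmo1 at 0.77 ± 0.36, and arginine genes in 5 of 11 (0.00), with Ass1 at -0.34 ± 0.13 and Slc7a2 at -0.29 ± 0.14. Of the growth factors and transcription factors 9 of 13 tested were above 0 (0.14), with Maf at -0.33 ± 0.09 and Csf1, the main macrophage growth factor, at -0.24 ± 0.08, and of the adhesion receptors 3 of 4 tested (0.05), with Adgre5 at 0.14 ± 0.23 and Adgrg3 at 0.06 ± 0.43. None of the values in this paragraph passed the edgeR threshold.

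The difference of the exercise effect between the sorts, as cancer minus TME, was tested in 1 fit of all 23 libraries. All 10 genes had a value below 0 (median -0.55 log2 against -0.01 over all genes), 0 were called by edgeR, and 0% of 17503 genes were called. With treatment and replicate number together as a block, 5 of the 10 were above 0 and the median was 0.11, none called. Only the 7 combinations with both sorts bear on the blocked contrast. Exercised TME library 9 and the cancer libraries without a TME library of the same treatment and number thus drop out of it. At an unadjusted p below 0.05 there were 3 of the 10 and 1316 of all genes, and DESeq2 and limma voom called 0 of the 10 and 0.0114 and 0.206% of all genes. Mertk stood at -1.003 ± 0.276 (edgeR adjusted p = 0.464), Mrc1 at -1.67 ± 0.72 and Trem2 at -0.77 ± 0.34. Without exercised TME library 7, Mertk stood at -1.22 ± 0.27 and was called (edgeR adjusted p = 0.0461, the smallest of a range up to 0.974 over 30 alternatives). Without exercised TME libraries 8 and 9, 8 of the 10 genes turned above 0 with a median of 0.74, and Mertk and Trem2 stayed below 0, at -0.57 ± 0.28 and -0.03 ± 0.30. Among partner genes Il4ra stood at -0.83 ± 0.28 and Il6 at -2.08 ± 0.71, neither called.

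The genes whose pattern over libraries was most like that of the 10 were found by Pearson correlation over 23 libraries, after the mean of each group was removed, with the mean of the 10 standardised genes. Among 11918 candidates whose log2 CPM averaged 1 or more, these were Ctss (cathepsin S, r = 0.955), Apobec1 (0.950), Ctsc (cathepsin C, 0.949), Pld4 (0.948) and Cd74 (the invariant chain of MHC class II, 0.944). The libraries share depth scaling and cell makeup, so the values describe these libraries. Over the 21 libraries without exercised TME 8 and 9 the values were 0.910, 0.869, 0.822, 0.838 and 0.870, and the 5 genes ranked 2, 4, 12, 9 and 3. Against the mean of the other 9 members over 23 libraries, C1qa was closest (0.914), followed by C1qb (0.900) and C1qc (0.872). Mertk was farthest (0.390), with Trem2 next (0.724) and the other genes between 0.828 and 0.847.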

How the data were processed

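PolyA RNA of 23 libraries of sorted cells was sequenced. Per the labels' protocols, it was isolated with Trizol and made into libraries with a KAPA Standard mRNA-Seq kit. The submitters' processing notes name STAR, featureCounts and mm10. Not given in the sources used here are their versions, the annotation release and the strand used in counting. What the authors deposited is a table of raw read counts per gene symbol, and all its columns were used. The counts went into edgeR 4.0.16 (R 4.3.3): filterByExpr, TMM scaling, robust quasi-likelihood test, two-sided, Benjamini-Hochberg adjustment over all genes tested, threshold 0.05. Exercise effects were fitted on the 15 cancer and the 8 TME libraries, and both other contrasts on all 23 without covariates. A standard error is the log2 difference over the square root of F. Log2 CPM used a prior count of 2.

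Genes named are the 10 markers, up to 4 genes per partner list with the smallest p among those called between sorts, up to 2 per list in each exercise comparison, and the 5 genes most like the markers. Adam10, Adam17 and Plcg2 were named after their values were seen, and 2 genes that the rule names are not reported here. The markers, lists and tests were chosen with earlier results of these data known. Alternatives were DESeq2 1.42.0, limma 3.58.1 (voom with quality weights), RLE size factors, other filters, the replicate number as a block, the macrophage core level as a covariate, all libraries in 1 fit, combinations with both sorts only, and libraries left out. Leaving out exercised TME libraries 8 and 9, and recounting the lists without them, without sedentary TME libraries 4 and 6 or without sedentary TME library 4, was added after the data were seen. The gene test was checked on simulated counts. No 2 libraries of a group were alike within counting noise.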

Additional observations from a re-analysis of the deposited data

Results flagged for a closer look

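In groups of 4 to 10 libraries, a value was singled out when its gap to the nearest other library took up an unusually large part of the group's range (Dixon's test at the 95% level). Chance singles out about 1 in 20 groups, and 40 groups were tested, so about 2 are expected against 4 found. All 4 lie in exercised cancer cells, and 3 of them are the highest value of library 8.

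Clec10a stood at 10.1 CPM in exercised cancer library 8, where the next library had 4.96 CPM. C1qb stood at 15.4 CPM in the same library against 9.52 CPM in the next, and Arg1 at 6.81 CPM against 3.52 CPM. The pan-leukocyte level of that library, 2.77 mean log2 CPM, was the highest of the 15 cancer libraries as well. Trem2 stood at 9.77 CPM in exercised cancer library 10, against 5.80 CPM in the next, and library 8 was not high for Trem2 (5.79 CPM).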

How the results depend on the processing

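The count of genes between sorts stayed within 1.5 times of 9201 under all alternatives, at 7360 to 9738. For exercise in cancer cells, 0 genes by edgeR became 161 with DESeq2, 196 with limma voom, 28 with no filter and 1 with all libraries in 1 fit, and 0 to 43 with 1 library left out (43 without sedentary library 4, 6 without exercised library 10, 3 without exercised library 5, 1 without sedentary library 3). For exercise in TME cells, 0 became 41 with DESeq2 and 6 with no filter. The difference between sorts went from 0 to 2 with DESeq2, 36 with limma voom and 0 to 52 with 1 library left out (52 without exercised TME library 7). The cause of these changes was not tested. The highest likeness value, 0.955 for Ctss, was 0.910 without exercised TME libraries 8 and 9.

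With the replicate number as a block, 7360 genes were called between sorts, 0 in each exercise comparison and 14 in the difference between sorts. A blocked exercise effect rests only on numbers that occur under both treatments. The TME sort had just 9 and 10, too few for its count of 0 to decide anything. The cancer sort had 2, 4, 5, 7 and 10, so exercised cancer library 8, among others, dropped out of the blocked values. The block moved C1qb to -0.034 and Arg1 to -0.53 log2 in cancer cells, and in the difference between sorts Adgre1 to 0.23, Clec10a to 0.82, Apoe to 0.70, C1qa to 0.80 and C1qc to 0.29, none called. Correlations of the deviations of libraries that share a number were 0.144 to 0.244 between sorts in the 3 exercised pairs and -0.061 to 0.050 in the 4 sedentary pairs, -0.066 to 0.094 between treatments in the cancer sort, and 0.011 and 0.234 in the TME sort, and 5 of 7 cancer libraries correlated best with their own number. The libraries share only a number, and the block is no evidence of pairing. Whether equal numbers mark the same animal was not tested, and the fits without a block ignore any such pairing.

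With the macrophage core level as a covariate, the exercise difference in cancer cells turned to -0.029 (Mrc1), 0.011 (Mertk), -0.29 (C1qb), -0.16 (C1qc) and -0.70 log2 (Arg1), and that in TME cells to -0.017 (Apoe), -0.056 (C1qa), -0.14 (C1qb), -0.31 (C1qc), -0.15 (Trem2) and -0.34 (Arg1). Without exercised TME libraries 8 and 9 it turned in TME cells to -0.075 (Adgre1), -0.068 (Mrc1), -0.22 (Apoe), -0.30 (C1qa), -0.43 (C1qb), -0.61 (C1qc), -0.30 (Trem2) and -0.60 (Arg1), and the difference between sorts to 1.31 (Adgre1), 0.55 (Mrc1), 1.09 (Clec10a), 0.71 (Apoe), 0.96 (C1qa), 0.77 (C1qb), 1.17 (C1qc) and 0.66 (Arg1). With 1 library left out, the exercise difference of Arg1 in cancer cells ran from -0.36 to 0.19, and the difference between sorts from -0.69 to 0.043 (Clec10a), -0.54 to 0.030 (C1qa) and -0.61 to 0.035 (C1qc). None of these turned values passed a threshold. Percent levels in the cancer sort moved by less than the spread between replicates on total counts and with 1 library left out. Without exercised TME libraries 8 and 9 the exercised values moved by more for 9 genes, to 17.8% (Adgre1), 18.5% (Mrc1), 6.20% (Clec10a), 6.80% (Apoe), 7.61% (C1qa), 9.56% (C1qb), 8.85% (C1qc), 31.1% (Trem2) and 11.6% (Arg1). Depth limits Adgre1, Clec10a and Arg1 in cancer cells most, where single libraries held as few as 21, 16 and 27 counts.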
